A study of Homo sapiens with 6 samples.

Results

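Chromatin accessibility was described at MDM2, CPM, MDM4, CDKN1A, BAX, BBC3, SESN1 and ZMAT3, that is, at MDM2, a gene that overlaps its end, and 6 further genes of the p53 pathway. All peaks that lay inside these 8 genes or within 50 kb of them (hg38, GENCODE 44) were taken, which gave 159 of the 171517 peaks of the deposited count table. The genes were selected on the measured change of an intronic MDM2 peak, which closed most clearly upon treatment in these same libraries, so its loss of counts is a description and has no test. The 6 ATAC-seq libraries came from the human embryonic stem cell line H9, held in the naive state (nES cells) in tt2iLGö medium. The 3 control libraries were labelled as DMSO-treated and, per the study's methods, received 0 mM dimethyl-α-ketoglutarate (dm-αKG), whereas the other 3 received 4 mM dm-αKG, a cell-permeable form of the TCA cycle metabolite αKG, for 24 h. In ATAC-seq a transposase inserts adapters into open chromatin, and the reads counted in a peak measure how open it is. The assay was performed once, with 3 biological replicates per group, and every culture came from the same cell line after removal of the feeder layer.

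The p53 pathway protects cells from damaged DNA. The transcription factor p53 binds paired decamer half-sites and activates genes that stop the cell cycle, trigger apoptosis or restrain growth signalling. MDM2 is the ubiquitin ligase that marks p53 for degradation and is itself a p53 target through a second promoter in its first intron, and MDM4 is its partner, which masks the p53 activation domain. CDKN1A encodes p21, the inhibitor of cyclin-dependent kinases, BAX and BBC3 (PUMA) encode pro-apoptotic members of the BCL2 family, SESN1 encodes a sestrin that restrains mTORC1, and ZMAT3 encodes an RNA-binding protein. CPM encodes carboxypeptidase M, a membrane enzyme. It is no p53 pathway gene and enters because its end overlaps that of MDM2.

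The libraries held 13025674 to 26828622 counts in peaks, and TMM factors lay between 0.9914 and 1.0142. The deepest library was dm-αKG replicate 1 and the shallowest was dm-αKG replicate 3. Promoter peaks were found for all 8 naive pluripotency genes listed (median control level of 377.4 normalized counts), but also for all 5 primed, all 5 trophoblast and 4 of the 5 fibroblast genes (medians of 130.4, 169.3 and 151.0). The presence of a promoter peak thus did not separate these cell types. Control levels ran from 200.1 to 746.4 for the naive genes and from 111.7 to 197.6 for the fibroblast genes. Those of the primed (111.8 to 468.6) and trophoblast genes (132.7 to 262.6) overlapped the naive range. A bulk library cannot tell a change in all cells from a change in the share of cells in which a site is open. Normalized counts are counts scaled by effective library size to the mean library, and log2 fold changes compare dm-αKG with control in a fit across all peaks.

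The sequences of the peaks on which the account turns are shown here from the plus strand of hg38, with matched motifs in capitals. These are an octamer (OCT, ATGCAAAT or ATGTAAAT), a SOX core (ACAAAGG or ACAATGG), the composite OCT-SOX element with at most 2 mismatches, an AP-1 element (TGACTCA or TGAGTCA) and a p53 site, each searched on both strands. The first 3 peaks lost counts upon dm-αKG treatment and the last 2 gained them. The octamer of the MDM2 peak, read on the minus strand, and the other motif positions are given with each peak.
MDM2 intron 8, chr12:68831305-68831533: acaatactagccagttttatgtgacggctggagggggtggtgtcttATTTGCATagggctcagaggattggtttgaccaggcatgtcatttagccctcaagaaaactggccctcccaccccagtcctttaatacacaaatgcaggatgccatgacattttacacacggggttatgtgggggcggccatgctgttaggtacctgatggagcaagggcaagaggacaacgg
MDM4 downstream, chr1:204574340-204574544: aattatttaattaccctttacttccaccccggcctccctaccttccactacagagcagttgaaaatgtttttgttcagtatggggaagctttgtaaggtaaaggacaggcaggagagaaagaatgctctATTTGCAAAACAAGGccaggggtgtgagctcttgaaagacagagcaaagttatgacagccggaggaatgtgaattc
SESN1 intron 1, chr6:109048184-109048390: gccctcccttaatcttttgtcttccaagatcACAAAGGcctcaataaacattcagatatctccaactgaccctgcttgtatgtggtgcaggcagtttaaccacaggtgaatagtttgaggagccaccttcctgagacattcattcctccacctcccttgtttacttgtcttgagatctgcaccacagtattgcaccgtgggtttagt
CDKN1A intron 1, chr6:36679264-36679463: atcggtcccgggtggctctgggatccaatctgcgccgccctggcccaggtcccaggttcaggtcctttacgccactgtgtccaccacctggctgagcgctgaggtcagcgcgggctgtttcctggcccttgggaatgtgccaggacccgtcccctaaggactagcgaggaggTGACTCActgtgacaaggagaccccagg
MDM2 intron 1, chr12:68808703-68808954: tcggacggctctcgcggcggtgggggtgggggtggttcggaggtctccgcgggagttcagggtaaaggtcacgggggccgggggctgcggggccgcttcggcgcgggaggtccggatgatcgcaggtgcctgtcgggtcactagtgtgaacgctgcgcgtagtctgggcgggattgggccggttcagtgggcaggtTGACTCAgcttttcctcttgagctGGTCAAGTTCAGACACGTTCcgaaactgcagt

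The intronic MDM2 peak lies at chr12:68831305-68831533, in intron 8 of the canonical transcript and in no exon of any annotated transcript. It is 23.2 kb from the gene start and 7.2 kb from the nearest annotated transcript start of a protein-coding gene. Its octamer stands at positions 68831351 to 68831358. The control libraries held 574.2, 536.8 and 602.5 normalized counts there, against 187.2, 189.9 and 206.6 in those treated with dm-αKG. The groups lay far apart, with every treated library below every control. The mean went from 571.1 ± 32.95 to 194.5 ± 10.51 (SD, n = 3), which is 34.06% of control and a log2 fold change of -1.56 (SE 0.09). This peak stood at percentile 98.03 of all peaks by its control mean and at 84.8 by its dm-αKG mean, so it remained an open site. It was in the authors' peak list of both groups, at a fold enrichment over background of 26.86 in control and 13.95 with dm-αKG. Leaving out any 1 library kept the log2 fold change between -1.60 and -1.52.

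The remaining chromatin of MDM2 did not follow this peak. The MDM2 promoter peak at chr12:68807930-68808129 held 382.9 ± 21.06 normalized counts in control and 389.3 ± 18.1 after treatment. The corresponding log2 value was 0.02 (SE 0.09, edgeR adjusted p = 0.927), and its sign turned when control replicate 1 or dm-αKG replicate 3 was left out. A peak 0.7 kb into the gene, in intron 1 at chr12:68808703-68808954, lies 0.2 kb from the annotated starts of the second promoter and carries an AP-1 element and, at its downstream end, the p53 site printed above. It held 229.0, 248.2 and 230.8 normalized counts in control and 330.6, 323.3 and 242.5 with dm-αKG. The third treated library lay within the control range, whereas the other two lay above it. Its log2 fold change of 0.36 (SE 0.11) had an edgeR adjusted p of 0.00992 and missed the threshold of 0.01 in 7 of 12 alternatives, among them DESeq2 and the omission of any library but dm-αKG replicate 3, with adjusted p from 0.000382 to 0.145. A second peak that fell within 50 kb of MDM2 belongs to another gene, SLC35E3, 15.0 kb upstream of MDM2 at chr12:68793069-68793274 (log2 fold change -0.62, SE 0.16, edgeR adjusted p = 0.00249).

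Counts summed over the MDM2 window put the intronic loss beside the rest of the locus. All 21 peaks within 50 kb of MDM2 together held 2251.5 ± 19.15 normalized counts in control and 2042.7 ± 13.78 with dm-αKG, 9.27% fewer. Without the intron 8 peak, the other 20 held 1680.4 ± 38.45 in control and 1848.2 ± 8.782 with dm-αKG, 9.99% more, and the groups overlapped in neither sum. The peak left out was chosen for its loss, and the 20 include peaks inside the neighbouring SLC35E3 and CPM. Summed over all 159 peaks at the 8 genes, counts were 4.90% higher with dm-αKG, also without overlap. The intron 8 peak alone accounted for 25.4% ± 1.49 of the counts of the window in control and for 9.52% ± 0.466 with dm-αKG (n = 3). The peaks within 50 kb of CPM include the same intron 8 peak, and the CPM promoter peak at chr12:68933138-68933341 held 327.1 ± 29.47 and 308.4 ± 25.23 normalized counts (log2 fold change -0.09, SE 0.10, edgeR adjusted p = 0.553).

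**Figure D1:**
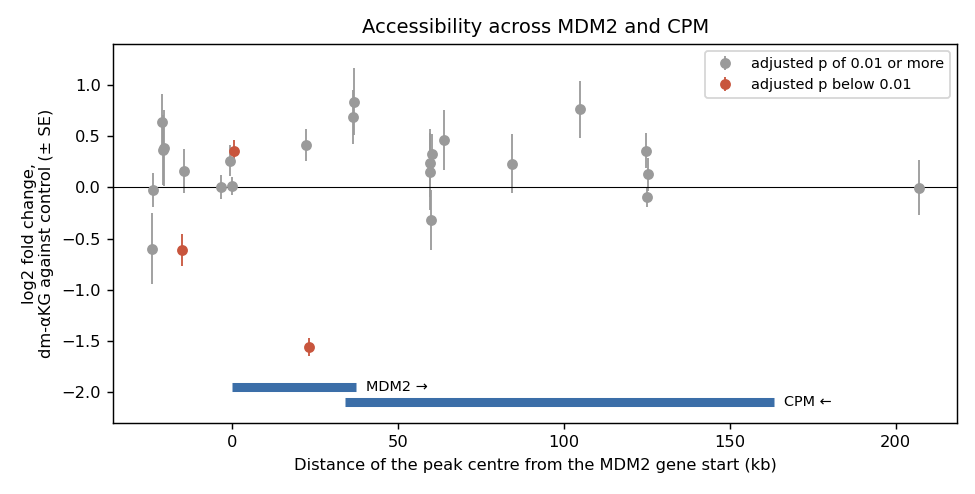
The log2 fold change of each peak within 50 kb of MDM2 or CPM, dm-αKG against control with its SE (y axis), is plotted against the distance of the peak centre from the MDM2 gene start in kb (x axis). Blue bars mark both genes, with arrows for their direction of transcription. The intron 8 peak at 23.2 kb, chosen for this loss, stands alone at -1.56, while the promoter peak lies at 0.02 and the intron 1 peak at 0.36.

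Across the 8 genes most peaks did not pass the test. At an edgeR adjusted p below 0.01 with more than a 1-unit log2 change, the thresholds of the study's methods, 3 of the 159 peaks were less accessible (1.89%, against 1.96% of all peaks) and 1 was more accessible (0.629%, against 0.782% of all peaks). Without the fold threshold 7 fell (4.40%, against 6.54% of all peaks) and 13 rose (8.18%, against 3.34% of all peaks). Some of those that rose, at CDKN1A and BBC3, hold a summit of the dm-αKG list only, the group in which they are high. The losses include the MDM2 intron 8 peak, on which the genes were selected. Among the other 158 peaks, 2 were called less accessible (1.27%) and 6 fell (3.8%). The count that rose was 4 with DESeq2, 6, 8 and 6 when control replicates 1, 2 and 3 were left out in turn, and 3 and 6 when dm-αKG replicates 1 and 2 were. Without dm-αKG replicate 1, the deepest library, 2 peaks instead of 1 were called more accessible. In 19 peaks all treated libraries lay below all controls (11.9%, against 16.9% of all peaks), and in 40 they lay above (25.2%, against 15.5% of all peaks). Because the same contrast served to select the genes, these shares are given without inference.

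Peaks near a transcript start and peaks farther away were also counted apart. Only transcript starts of protein-coding genes were used for this. Of the 60 peaks within 1 kb of such a start, 1 fell (1.67%) and 8 rose (13.3%), with a median log2 fold change of 0.19. Of all 50907 peaks near a start, 2.08% fell and 4.47% rose, with a median of 0.10. Of the 99 farther away at the 8 genes, 6 fell (6.06%) and 5 rose (5.05%), with a median of -0.02. Of all 120610 such peaks, 8.42% fell and 2.86% rose, with a median of -0.05. Peaks near a start made up 37.7% of those at the 8 genes and 29.7% of all peaks. The median log2 fold change was 0.09 over the 159 peaks and 0.01 over the table. By gene, it ranged from -0.06 at SESN1 to 0.26 at CDKN1A.

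**Figure D2:**
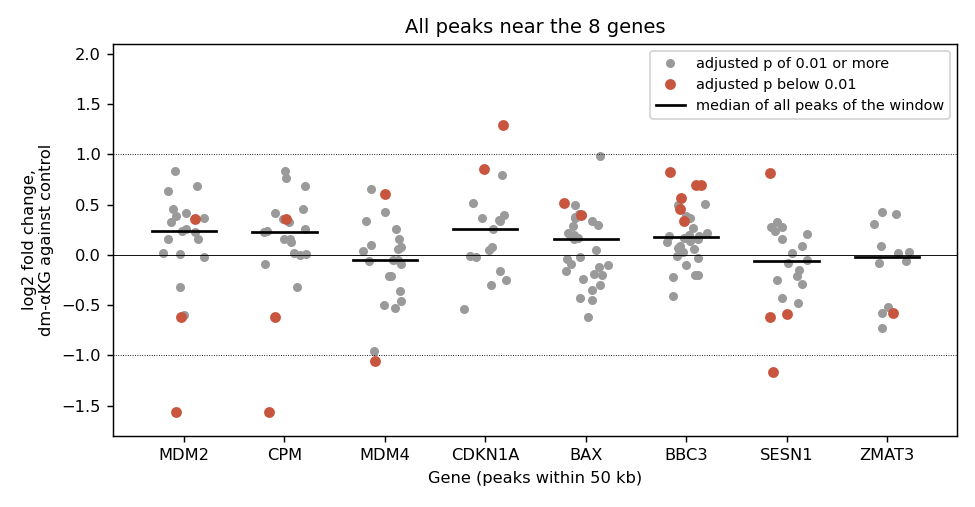
Each point is a peak within 50 kb of the gene named on the x axis, placed by its log2 fold change, dm-αKG against control (y axis). Red points have an adjusted p below 0.01, black lines are medians, dotted lines mark changes of 1 in either direction, and MDM2 and CPM share peaks. The 6 red points at BBC3 all lie above 0, and the 3 below -1 are the peaks of MDM2 (drawn again at CPM), MDM4 and SESN1.

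At MDM4, the other inhibitor of p53, a distal peak fell while the promoter did not pass the test. The distal peak at chr1:204574340-204574544 is intergenic, 58.1 kb from the gene start on its downstream side, and carries an OCT-SOX element printed above. Its normalized counts were 126.1, 118.4 and 159.1 in control and 68.12, 66.71 and 53.88 with dm-αKG. All treated libraries lay below all controls. The log2 fold change was -1.06 (SE 0.17, edgeR adjusted p = 1.611e-06), and the adjusted p stayed below 0.01 in all 12 alternatives. It was smaller than 1 in size, and the call thus lost, without control replicate 3 (-0.936) or dm-αKG replicate 3 (-0.977). The promoter peak at chr1:204516242-204516442 held 574.2 ± 11.11 and 619.8 ± 67.8 normalized counts (log2 fold change 0.10, SE 0.08, edgeR adjusted p = 0.410). The peak with the smallest p among those that rose within 50 kb of MDM4 lies in intron 1 of the neighbouring PIK3C2B, at chr1:204493579-204493934. It went from 75.34 ± 8.9 to 114.7 ± 23.81 normalized counts (log2 fold change 0.61, edgeR adjusted p = 0.00746), and it missed the threshold with DESeq2 and on omission of control replicate 1 or 3 or of dm-αKG replicate 1 or 2, with adjusted p up to 0.0884.

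CDKN1A, the cell cycle arm of the pathway, held the only peak at the 8 genes that was called more accessible. It lies in intron 1 at chr6:36679264-36679463, 0.6 kb from the nearest CDKN1A start, with the AP-1 element printed above at positions 36679436 to 36679442. Its normalized counts were 30.41, 35.35 and 46.16 in control and 96.09, 85.95 and 86.81 with dm-αKG. All treated libraries lay well above all controls. On the log2 scale the change was 1.29 (SE 0.21, edgeR adjusted p = 1.903e-06), and it passed the threshold in all 12 alternatives. It is a weak site: no summit of the control peak list lies in it, and its fold enrichment in the dm-αKG list was 2.028. The adjacent peak at chr6:36678963-36679162 also rose, with a log2 fold change of 0.85 (SE 0.20, edgeR adjusted p = 0.000768). It too holds no summit of the control list, and its fold enrichment in the dm-αKG list was 2.484. Both peaks thus entered the count table through the group in which they are high, and their p-values are given as descriptions.

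The strongest CDKN1A promoter peak, just upstream of these at chr6:36678577-36678783, held 440.1 ± 34.32 and 437.2 ± 23.77 normalized counts. Its log2 fold change was -0.01 (SE 0.08, edgeR adjusted p = 0.960), with a sign that turned under total-count scaling and in 3 of the 6 omissions of a library. Over the 17 peaks within 50 kb of CDKN1A none fell at an edgeR adjusted p below 0.01 and 2 rose (11.8%). These 2 are the intron 1 peaks with a summit in the dm-αKG list only. Over all peaks 6.54% fell and 3.34% rose. The summed counts of the 17 went from 2162.2 ± 98.83 to 2394.3 ± 64.88, 10.7% more, without overlap between the groups.

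Peaks rose at both apoptosis genes. Of the 32 peaks within 50 kb of BAX, 2 rose (6.25%, against 3.34% of all peaks) and none fell. Of these 32, 46.9% lie near a start, and of all peaks near a start 4.47% rose. At BAX, the peak over the start at chr19:48954592-48954986 held 240.6, 238.4 and 206.5 normalized counts in control and 314.8, 311.7 and 273.9 with dm-αKG. All treated libraries lay above all controls. Its log2 fold change was 0.39 (SE 0.10, edgeR adjusted p = 0.00344). The next peak, 0.5 kb into the gene in intron 1 at chr19:48955173-48955379, held 152.9, 156.2 and 171.3 in control and 237.4, 230.9 and 212.5 with dm-αKG. The groups again did not overlap, and the log2 fold change was 0.52 (SE 0.12, edgeR adjusted p = 0.000834). The promoter peak missed the threshold with DESeq2 and on omission of control replicate 3 or of dm-αKG replicate 1 or 2 (adjusted p up to 0.0391), and the intron 1 peak on omission of replicate 1 of either group (up to 0.0143).

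At BBC3, 6 of the 30 peaks rose and none fell at an edgeR adjusted p below 0.01, with log2 fold changes between 0.34 and 0.83. Those that rose at chr19:47228230-47228429 and chr19:47228475-47228674 hold a summit of the dm-αKG list only, and so entered the table through the group in which they are high. Over all peaks 3.34% rose and 6.54% fell, and among those near a start 4.47% rose. Of the BBC3 peaks 50.0% lie near a start. The smallest p belonged to a peak at chr19:47231256-47231663, 1.3 kb into the gene and 0.3 kb from a transcript start. Its normalized counts were 278.2, 256.5 and 210.1 in control and 365.0, 369.5 and 284.4 with dm-αKG. All treated libraries lay above all controls, the third by little. It rose by 0.45 on the log2 scale (SE 0.10, edgeR adjusted p = 0.000546), but the threshold was missed on omission of control replicate 3 or of dm-αKG replicate 1 or 2 (adjusted p up to 0.0170). The strongest promoter peak, at chr19:47227713-47228115, had the highest level of any peak at the 8 genes. It held 1009 ± 41.35 and 1114 ± 34.67 normalized counts, which did not overlap between groups, and its log2 fold change of 0.14 (SE 0.06) did not pass the test (edgeR adjusted p = 0.116). The 3 other peaks within 1 kb of a BBC3 start did not pass it either. Summed over all peaks within 50 kb, counts went from 5655.2 ± 305.5 to 6391.7 ± 266.0 at BBC3, 13.02% more, and from 4532.8 ± 156.3 to 4978.6 ± 32.45 at BAX, 9.84% more. These sums also hold promoter peaks of neighbouring genes, such as CCDC9 and INAFM1 at BBC3 and FTL and RUVBL2 at BAX.

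**Figure D3:**
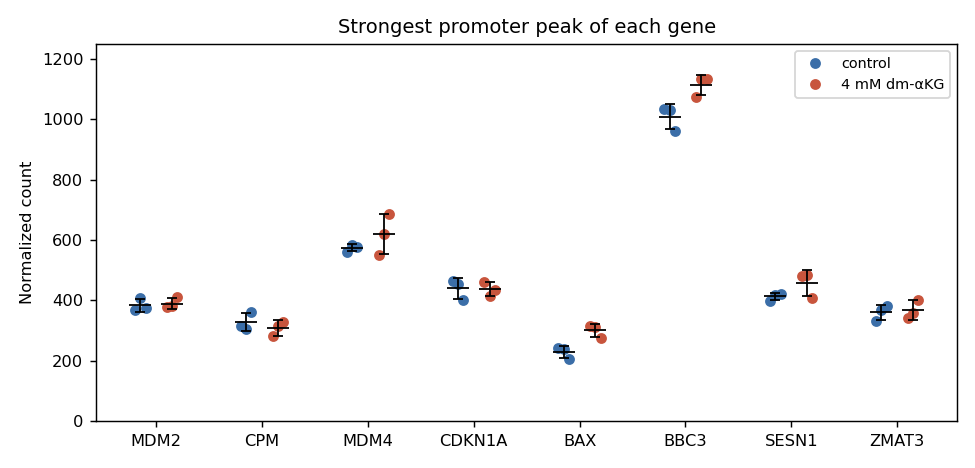
Normalized counts of the strongest promoter peak of each of the 8 genes (y axis) are shown for the 3 control and 3 dm-αKG libraries as points, with the mean and SD in black. BBC3 has the highest level, near 1009 in control. BAX is the gene whose promoter peak passed the test, and BAX and BBC3 are those whose groups do not overlap.

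At SESN1, changes in both directions were found within the same intron. The called peak at chr6:109048184-109048390 lies in intron 1, 46.6 kb from the gene start, and carries a SOX core. Its normalized counts were 118.1, 104.4 and 91.1 in control and 48.05, 39.77 and 52.39 with dm-αKG. All treated libraries lay below all controls. Its log2 fold change was -1.17 (SE 0.19, edgeR adjusted p = 2.58e-06), and it passed the threshold in all 12 alternatives. In the other direction, a peak 0.3 kb from an internal SESN1 start, at chr6:109009763-109009962, went from 36.25 ± 2.075 to 63.43 ± 4.764 normalized counts (log2 fold change 0.81, SE 0.23, edgeR adjusted p = 0.00712). It missed the threshold with DESeq2 and in each omission of a library except dm-αKG replicate 3, with adjusted p up to 0.0628. This too is a weak site. A summit of the control peak list lies in it, at a fold enrichment of 3.212, whereas no summit of the dm-αKG list does. The promoter peak at chr6:109094455-109094667 held 412.6 ± 12.76 and 456.6 ± 42.9 (log2 fold change 0.16, SE 0.08, edgeR adjusted p = 0.192). The other peaks that fell within 50 kb of SESN1 lie in intron 12 of the neighbouring ARMC2, with log2 fold changes of -0.61 and -0.58. Of the 20 peaks in this window, 3 fell (15.0%, against 6.54% of all peaks) and 1 rose (5.0%, against 3.34%).

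At ZMAT3, 1 of the 12 peaks fell (8.33%, against 6.54% of all peaks) at an edgeR adjusted p below 0.01. None rose, against 3.34% of all peaks. The intergenic peak that fell, at chr3:179081934-179082135, lies 9.8 kb upstream of the gene, with an octamer and an overlapping OCT-SOX element. Its normalized counts were 206.6, 194.0 and 187.1 in control and 133.4, 127.0 and 133.2 with dm-αKG. All treated libraries lay below all controls, at 66.98% of the control mean. The log2 fold change was -0.58 (SE 0.13, edgeR adjusted p = 0.000576), and it missed the threshold only without control replicate 1 (adjusted p = 0.0109). The ZMAT3 promoter peak at chr3:179071734-179071934 held 360.4 ± 25.34 and 367.2 ± 32.13 normalized counts, a log2 fold change of 0.02 (SE 0.09, edgeR adjusted p = 0.922) whose sign turned when control replicate 1 or dm-αKG replicate 3 was left out. Summed counts overlapped between groups at ZMAT3, SESN1 and MDM4.

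**Figure D4:**
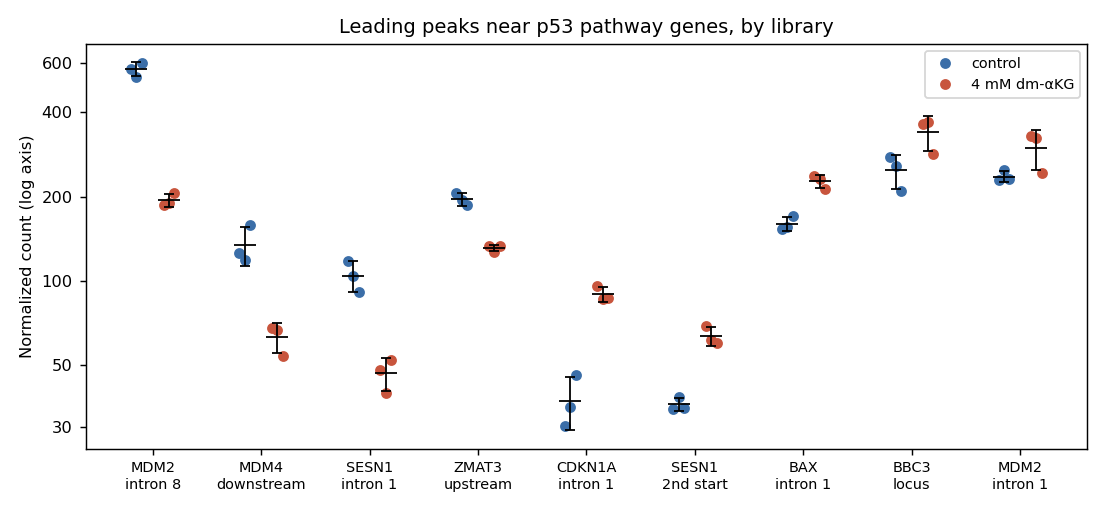
Normalized counts (y axis, log scale) of 9 peaks are shown for the 3 control and 3 dm-αKG libraries as points, with the mean and SD in black. The groups are apart in the first 8 peaks and overlap in the last, at MDM2 intron 1. The loss at MDM2 intron 8, from 571.1 to 194.5, is the deepest of those drawn.

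**Figure D5:**
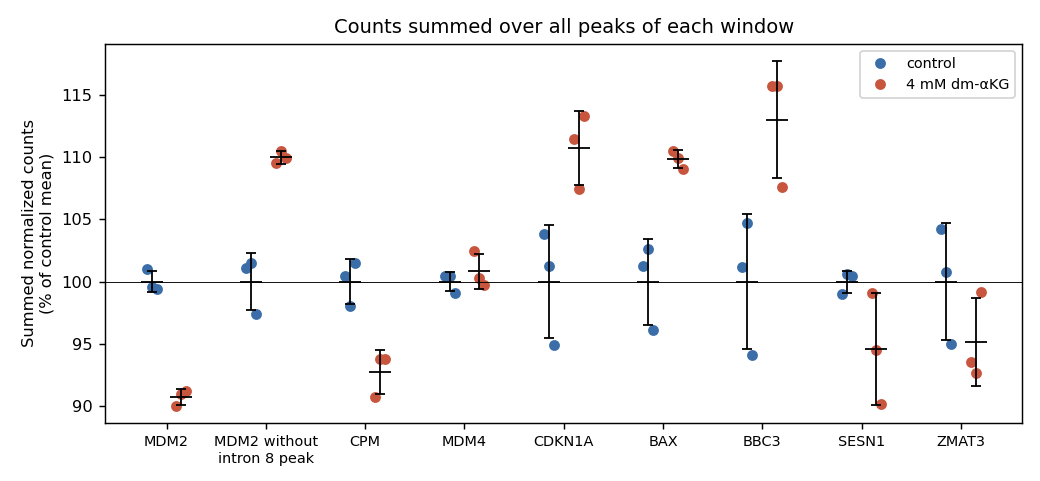
Normalized counts summed over all peaks within 50 kb of each gene, as a percentage of the control mean (y axis, which does not start at 0), are shown per library with the mean and SD. MDM2 moves from 9.27% below control to 9.99% above it once the intron 8 peak is left out, and CDKN1A, BAX and BBC3 lie 10.7%, 9.84% and 13.02% above control.

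The p53 sites of these genes were then compared with the changes. A p53 site was taken as 2 half-sites of 10 bases, at most 13 bases apart, with the core C and G of each intact and at most 2 mismatches in all, in the 200 bp around the peak centre. It was found in 4 of the 159 peaks (2.52%), against 2.66% of all peaks. They belong to the windows of BAX, CDKN1A, ZMAT3 and SESN1, and a search of the whole peak added the MDM2 intron 1 site. The sites are printed to show how each pairs its half-sites.
BAX intron 1, chr19:48955213-48955232: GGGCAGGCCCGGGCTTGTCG
CDKN1A upstream, chr6:36667258-36667277: AGACAAGCCCGGGCAAGGCC
ZMAT3 intron 2, chr3:179046875-179046894: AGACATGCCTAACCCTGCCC
SESN1 window, ARMC2 intron 12, chr6:108946026-108946053: GAGCTTGCTCcttttttcAGCCTTGGCC
MDM2 intron 1, chr12:68808923-68808942: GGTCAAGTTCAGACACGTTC

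The 5 peaks with a site differed in the sign of their log2 fold change, and only the BAX and MDM2 intron 1 peaks passed the test. Both rose, as described above. The CDKN1A peak, 9.2 kb upstream of the gene at chr6:36667186-36667401, went from 164.1 ± 20.39 to 206.9 ± 14.45 normalized counts, without overlap and without passing the test (log2 fold change 0.35, SE 0.12, edgeR adjusted p = 0.0376). The ZMAT3 peak in intron 2, at chr3:179046823-179047028, went from 78.36 ± 14.5 to 53.38 ± 6.08, also without passing it (log2 fold change -0.58, SE 0.21, edgeR adjusted p = 0.0362). The peak in the SESN1 window at chr6:108945888-108946089 held 157.2 ± 8.834 and 140.3 ± 11.38 (log2 fold change -0.15, SE 0.14, edgeR adjusted p = 0.488). A matched sequence is a description and does not show that p53 was bound. With at most 1 mismatch 1 of the 159 peaks held a site, and with at most 3 mismatches 19 did, so the number depends on the stringency. Where the half-sites had to be adjacent, 3 of the 159 held a site (1.89%), against 0.356% of all peaks, a difference that was not tested and that concerns genes chosen as p53 targets.

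Motifs of pluripotency factors were more frequent among the few peaks that fell. An OCT, SOX or OCT-SOX motif was present in 5 of the 7 peaks at the 8 genes that fell (71.4%) and in 0 of the 13 that rose. The 5 and the 7 both include the MDM2 intron 8 peak, whose loss served to select the genes. Over all peaks the share was 10.8%, with 24.7% among those that fell and 6.86% among those that rose. AP-1 elements were found in 1 of the 7 and in 2 of the 13, and over all peaks in 3.603% of those that fell and 10.7% of those that rose. TEAD motifs (AGAATG or GGAATG) were found in 3 of the 7 and 4 of the 13, and over all peaks in 35.73% and 18.45% respectively. Of all peaks, moved or not, 4.50% held an AP-1 and 24.0% a TEAD motif. These numbers of peaks are small, and the association was not tested.

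The pathway beyond these genes was covered by 32 further genes of the pathway, with 598 peaks within 50 kb. Of these 17 fell (2.84%, against 6.54% of all peaks) and 20 rose (3.34%, the same share as over all peaks) at an edgeR adjusted p below 0.01, and the median log2 fold change was 0.10. Without dm-αKG replicate 1, 10 of the 598 fell and 7 rose. Those that rose numbered 12 on omission of control replicate 1, 7 on omission of dm-αKG replicate 2 and 8 with DESeq2. All 32 genes had a promoter peak, and 1 passed the test. This was SPATA18, a mitochondrial quality control gene, where the peak at chr4:52051929-52052133 went from 502.4 ± 37.66 to 616.0 ± 58.2 normalized counts (log2 fold change 0.28, SE 0.08, edgeR adjusted p = 0.00699).

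In the same windows 4 peaks were called less accessible (0.669%, against 1.96% of all peaks) and 1 more (0.167%, against 0.782%). Of all peaks near a start 0.316% were called less and 0.485% more accessible, and of those farther away 2.66% and 0.908%. Of the called losses, the largest by log2 fold change was 15.7 kb from the nearest start of the autophagy gene DRAM1, where counts went from 60.19 ± 8.964 to 24.65 ± 3.962 (-1.32, SE 0.26, edgeR adjusted p = 8.091e-05). The loss with the highest control level was a peak near the DNA repair gene XPC, in intron 1 of its neighbour CHCHD4, which went from 484.7 ± 20.47 to 230.8 ± 13.81 (-1.07, SE 0.09, edgeR adjusted p = 1.649e-16). Intergenic chromatin near the nuclease gene AEN (-1.06) and a peak in an antisense RNA gene of CSRP1, near PHLDA3 (-1.003), were the others. The peak that opened lies in the TP73 window, in a long noncoding RNA gene 662 bp from the start of the neighbouring TPRG1L. It is a weak site, at 17.16 ± 3.724 and 36.56 ± 9.238 normalized counts (1.12, SE 0.32, edgeR adjusted p = 0.00762).

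Among 57601 peaks elsewhere with a mean of at least 100 normalized counts, the library profile most like that of the MDM2 intron 8 peak was found at an intergenic peak whose nearest gene is NPTX2, at chr7:98560038-98560255. The root mean square difference over the 6 libraries, after centring log2 counts, was 0.062, and the log2 fold change was -1.61. Those nearest VWF and ACOXL followed at 0.071 and 0.083. With only 6 libraries in 2 groups, this likeness reflects mainly the difference between the groups.

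At the edge of the windows the peaks just inside and just outside 50 kb were as follows. The outermost MDM2 peak inside, at 46.8 kb, had a log2 fold change of 0.23, and the nearest outside, at 61.3 kb, had 0.33. For the other 7 genes, the nearest peaks outside had log2 fold changes between -0.58 and 0.57. The outermost inside lay between -0.73 and 0.19.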

How the data were processed

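ATAC-seq of H9 nES cells was compared between 3 control and 3 dm-αKG libraries, grouped by the sample labels. The authors converted reads with bcl2fastq (2.20.0.422 per the submitters' processing notes) and processed them with the ENCODE ATAC-seq pipeline on hg38, in a separate run for each treatment, calling peaks with MACS2 and keeping the reproducible ones. They cut peaks to 200 bp around the summit, merged both lists and, with bedtools 2.28.0, deposited raw counts of reads per merged peak and library. The peak lists deposited by the authors pool the replicates of a group and give a score, a fold enrichment ratio and −log10 p- and q-values. Only fold enrichment and summit positions were used, as descriptions. Because peaks were called per treatment, a site open in 1 group only is still counted in both.

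All 171517 peaks were fitted with edgeR 4.0.16 (R 4.3.3; quasi-likelihood test, TMM, Benjamini-Hochberg over all peaks, no covariates), and SE was taken from the log2 fold change and its F statistic. No peak was filtered. Of the 159 peaks, 8 held under 10 counts in at least 1 library. Totals of 13025674 to 26828622 counts set the precision, and p-values measure the spread between 3 cultures per group of 1 line. An exact permutation test of 3 against 3 cannot give p below 0.1, so none was used. Alternatives were DESeq2 1.42.0, limma-voom 3.58.1, RLE or total-count scaling, at least 10 counts in every library, a replicate block, omission of each library and other windows. The fits and motif search were tested on simulated data. Gene models came from GENCODE 44. Motifs were searched in the central 200 bp. KLF (GGGCGGGGC, GGGCGTGGC, GGGTGGGGC or GGGTGTGGC) was found in 26 of the 159 peaks (10.2% of all peaks), NRF2 (TGACNNNGC) in 16 (9.56%) and CTCF in 8 (7.46%).

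The genes, the further pathway genes, the marker lists and the motifs were chosen with earlier results of these data known. Peaks were named by rule: the MDM2 intron 8 peak, each gene's strongest promoter peak (centre within 1 kb of a start), every called peak, the smallest p in each direction per gene, those with a p53 site, for the other 32 genes the called peaks and promoters that passed, and the 3 peaks of most similar profile. The other peaks mentioned were chosen after their values were seen. The values of 1 promoter peak and the sequence of 1 peak are not reported here.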

Additional observations from a re-analysis of the deposited data

How the results depend on the processing

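The log2 fold change of the MDM2 intron 8 peak lay between -1.60 and -1.52 under every alternative run. The peaks called less accessible at the 8 genes numbered 3 in the reported fit, 2 to 3 when a library was left out (the MDM4 peak was lost without replicate 3 of either group) and 5 within 100 kb, and those called more accessible 1, 1 to 2 and 3. Those that fell numbered 7, 5 to 8 when a library was left out, 2 within the gene span and 16 within 100 kb. Those that rose numbered 13, 3 to 13 when a library was left out and 4 with DESeq2. At the 32 further genes, those that fell numbered 17, 10 to 19 when a library was left out, 3 in the gene span and 39 within 100 kb, and those that rose 20, 7 to 21, 8 in the gene span, 38 within 100 kb and 8 with DESeq2. The wider and narrower windows hold more and fewer peaks by construction. For DESeq2 and the omissions the cause was not tested, and 4 of the 159 peaks had no DESeq2 adjusted p. Peaks with a p53 site numbered 4, with 1 at 1 mismatch and 19 at 3.

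Signs turned at promoter peaks near 0. On omission of a library the MDM2 promoter ranged from -0.019 to 0.07, negative when control replicate 1 (-0.009) or dm-αKG replicate 3 was left out, and the ZMAT3 promoter from -0.046 to 0.083, negative for the same libraries (-0.034 and -0.046). The CDKN1A promoter ranged from -0.066 to 0.035, positive when control replicate 1 (0.035) or 2 (0.021) or dm-αKG replicate 2 (0.028) was left out, and gave 0.008 with total counts. Replicates of the same number did not deviate together (correlations of -0.018, 0.007 and 0.032), and the other pairs lay between -0.051 and 0.055. Whether replicates of the same number were handled together cannot be told from these values or from the labels. With the replicate block 3 peaks were called less and 1 more accessible, 7 fell and 11 rose at the 8 genes, 17 fell and 20 rose at the 32 further genes, and the MDM2 intron 8 peak gave -1.56. Among the named peaks that passed, only MDM2 intron 1, which was not a called peak, missed the adjusted p threshold with the block (log2 fold change 0.352, edgeR adjusted p = 0.01053).

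Of the 159 peaks, 8 held under 10 counts in at least 1 library.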
